A study of Mus musculus with 33 samples.

Results

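A set of 9 genes of primitive erythropoiesis was followed through the knockout series: Hba-x, Hbb-bh1, Hbb-y, Klf1, Tal1, Epor, Nfe2, Gfi1b and Lmo2. They were chosen by name from the 37991 gene identifiers counted and were read in all 33 libraries by genotype and stage. The first red cells of the mouse embryo form in the blood islands of the yolk sac, from mesoderm that also gives rise to endothelium. In blood progenitors the LIM protein Lmo2 bridges the helix-loop-helix factor Tal1 and GATA factors in a single complex, Klf1 activates red cell genes through CACCC boxes, Nfe2 acts on the globin loci and Gfi1b represses transcription in red cell precursors. Epor is the receptor for erythropoietin, and the embryonic chains Hba-x (zeta), Hbb-bh1 (beta-h1) and Hbb-y (epsilon-y) make the haemoglobin of primitive red cells.

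The study asked how loss of the base excision repair enzymes Neil1, Neil2 or Apex1 affects differentiation of E14TG2a cells, a mouse embryonic stem cell (mESC) line. Deletions around the codon of the active site were made with CRISPR/Cas9 in Neil1 clones #7, #9 and #11, Neil2 clones #1, #11 and #14 and Apex1 clone #46, and wild-type clones #1, #4 and #7, which had received an empty vector, served as control. RNA was sequenced from undifferentiated mESCs, from embryoid bodies (EBs) on day 8, and from EBs that had received 5 µM retinoic acid (RA) from day 4. EBs with and without RA of a clone came from the same dish, divided on day 4. Control, Neil1 and Neil2 thus had 3 clones per stage, given below in the order above, whereas Apex1 was 1 clone with technical duplicates, which were added up to 1 library for every test. Its tests set 1 library against 3 control clones, and that library was assumed to vary like the controls.

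Libraries held 21523742 to 48350904 counts on genes (median 26720028), so that 3 counts in a library, taken here as the limit of detection, corresponded to 0.062 to 0.139 CPM (counts scaled to library size). Each deletion removed only part of a gene, so counts over the whole gene do not check the genotype. The study checked its clones by PCR across each deletion, by western blot for NEIL1 and APEX1 and by quantitative PCR for Neil2. Neil1 had 774, 59 and 200 counts in Neil1 mESCs and 269, 254 and 194 in control mESCs. Neil2 had 131, 257 and 192 counts in Neil2 mESCs and 414, 352 and 146 in control mESCs. Apex1 had 2351 and 2005 counts in the mESC libraries labelled Apex1 and 224, 205 and 452 in control mESCs, which is why these libraries are called by their label. The mESC library of Neil1 clone #11 lacked counts over distal chromosome X, where none of the 9 genes lies.

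Promoters of 3 members are shown because GATA factors, the Lmo2-Tal1 complex and Klf1 act on red cell genes through short motifs. The set of RefSeq promoters used here (GRCm38.p6) gave 7 start sites for 6 of the 9 members, namely Hba-x, Hbb-y, Klf1, Tal1, Epor and Gfi1b. It held no entry matched by name to Hbb-bh1, Nfe2 or Lmo2, so these were not searched. The 250 bases before each start were searched on both strands for GATAA (GATA factors), CACCC (Klf1 and related factors) and CANNTG (the E-box of helix-loop-helix factors). GATAA was found in 6 of the 7 windows and in 22.6% of the 32851 promoters of all genes. CACCC was found in 6 of 7 windows and in 52.0% of all promoters. CANNTG was found in 4 of 7 windows and in 66.2% of all promoters. Capitals mark the motifs on either strand, where TTATC and GGGTG are the reverse complements, and a match is a description, not a measured site.
Hba-x, chr11:32276350-32276599, plus strand: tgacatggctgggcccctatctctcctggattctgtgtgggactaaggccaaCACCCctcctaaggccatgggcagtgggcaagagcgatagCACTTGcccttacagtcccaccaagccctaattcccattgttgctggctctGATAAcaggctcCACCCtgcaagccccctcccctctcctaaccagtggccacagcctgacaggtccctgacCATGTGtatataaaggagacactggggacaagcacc
Tal1, upstream start, chr4:115056176-115056425, plus strand: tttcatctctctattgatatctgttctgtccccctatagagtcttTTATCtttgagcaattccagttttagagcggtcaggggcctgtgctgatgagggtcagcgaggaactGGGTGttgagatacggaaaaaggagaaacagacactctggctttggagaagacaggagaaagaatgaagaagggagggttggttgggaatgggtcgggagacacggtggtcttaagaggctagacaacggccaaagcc
Tal1, downstream start, chr4:115057561-115057810, plus strand: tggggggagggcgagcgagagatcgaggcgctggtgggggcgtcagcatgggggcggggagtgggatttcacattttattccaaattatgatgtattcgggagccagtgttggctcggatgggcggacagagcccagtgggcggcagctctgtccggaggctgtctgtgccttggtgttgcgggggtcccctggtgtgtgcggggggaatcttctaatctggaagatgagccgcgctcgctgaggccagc
Epor, chr9:21963577-21963826, minus strand: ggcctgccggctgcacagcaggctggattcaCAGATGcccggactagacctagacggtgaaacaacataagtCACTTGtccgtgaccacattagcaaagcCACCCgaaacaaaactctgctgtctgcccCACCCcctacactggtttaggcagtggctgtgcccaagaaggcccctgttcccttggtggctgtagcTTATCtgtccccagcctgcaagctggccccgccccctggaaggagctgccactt
Hba-x and Epor each hold 1 GATAA, 2 CACCC and 2 CANNTG matches. The upstream start of Tal1 has 1 GATAA and 1 CACCC match, and no motif was found at its downstream start.

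Of the embryonic globins that mark primitive red cells, Hba-x and Hbb-y were near or under the limit of detection, and Hbb-bh1 was clearly above it in 2 control EB libraries alone. Hba-x, on chromosome 11 (NCBIM37, 32176400 to 32178116), had 36 counts over all libraries, with 17 of 33 libraries at 0 and at most 7 counts in one. Hbb-y, on chromosome 7 (111000259 to 111001754), had 64 counts in all, with 12 libraries at 0 and at most 7 counts in one. Neither passed the filter on low counts in any comparison. Of the adult chains, Hbb-b1 was at 0 in all libraries, and Hba-a1, which is uncertain because Hba-a2 is nearly identical, had 0 to 4 counts. Alas2, the red cell enzyme that starts haem synthesis, had 0 to 22 counts.

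Hbb-bh1, next to Hbb-y on chromosome 7 (110990150 to 110991678), was counted only in EBs without RA. Control EBs had 37, 60 and 0 counts, or 0.778, 2.34 and 0 CPM. Neil1 EBs had 0, 1 and 0 counts, Neil2 EBs 0, 0 and 0, and the EB libraries labelled Apex1 0 and 3. Control clones #1 and #4 were above every mutant library, and control clone #7 was at 0 like most of these. Over the summed libraries, the control level was 69.0 times that of Neil1 EBs (95% interval 12.1 to 2750) and 16.4 times that of EBs labelled Apex1 (5.44 to 80.9). Against Neil2 EBs, at 0 counts, it was 24.9-fold higher when reckoned with 3 counts over that group, and the lower 95% limit of the ratio at 0 counts was 19.9. The ratios for Neil1 and Apex1 used the counts as found, so that for Neil1 rests on 1 count. In Neil1 EBs 3 counts over the group would be 0.0420 CPM, beside 0.966 CPM in the summed control EBs. With 1 count in Neil1 and 0 in Neil2, these values set no order between the Neil genotypes. These exact intervals cover counting error only, not the gap between control clones. Hbb-bh1 passed the filter only in the comparison of Apex1 with control, where the adjusted p was 0.381. With all libraries, the adjusted p for Neil1 was 0.218 without the filter, 0.0915 by DESeq2 and 0.0475 with all genotypes in 1 fit, and for Neil2 0.427, 0.24 and 0.0351, and for Apex1 0.653, 0.463 and 0.273. Without control clone #7, which had no counts of Hbb-bh1, the log2 fold change was -4.59 for Apex1, -6.37 for Neil1 and -8.51 for Neil2. These fits leave out the only control at 0 counts, so they cannot test whether controls differ from mutants.

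Hba-x stood out in Neil1 EBs + RA. These had 5, 7 and 7 counts, whereas control EBs + RA had 1, 0 and 0, Neil2 EBs + RA 1, 1 and 0 and those labelled Apex1 1 and 1. All 3 Neil1 clones lay above every other library of the series, none of which exceeded 3 counts, but the highest of them reached only 0.283 CPM. Without the filter on low counts the adjusted p was 0.0157, and by DESeq2 0.0281. Hbb-y had 4, 6 and 6 counts in Neil2 EBs + RA and 0, 1 and 0 in Neil2 EBs (adjusted p = 0.0212 without the filter and 0.0477 by DESeq2), but 7, 4 and 1 in control EBs + RA.

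**Figure D1:**
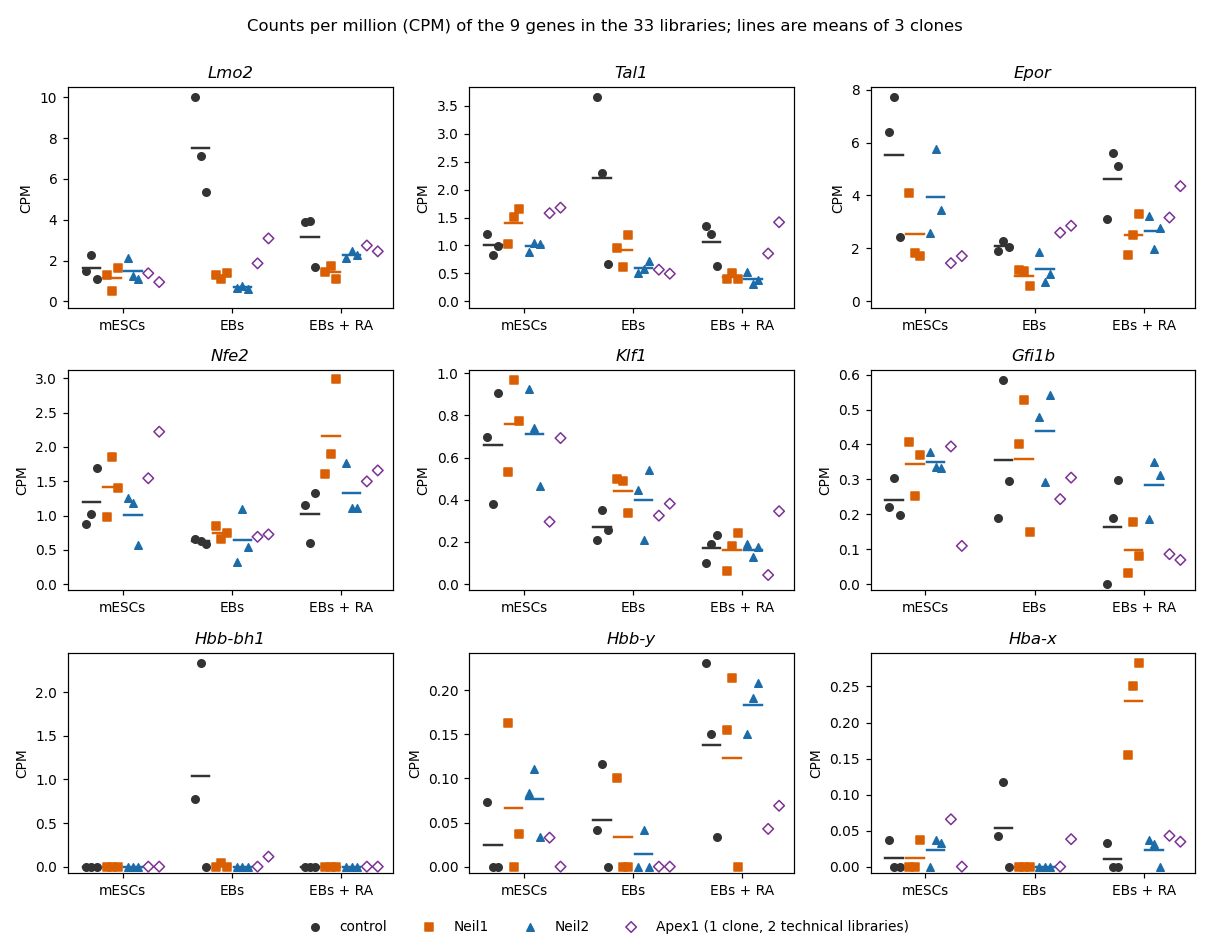
CPM of each member (y axes differ between panels) in each of the 33 libraries, by stage on the x axis and by genotype in colour; dots are libraries, lines are means of 3 clones, and open diamonds are the technical duplicates labelled Apex1. Control EBs stand highest for Lmo2 (5.34 to 10.0 CPM), while the globin panels lie between 0 and 2.34 CPM.

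Among the regulators and the receptor, Epor and Lmo2 were the most abundant per kilobase of exon (CPM/kb). In control mESCs Epor had 3.02 ± 1.5 CPM/kb (mean ± SD, n = 3), Lmo2 0.75 ± 0.274, Klf1 0.430 ± 0.172, Nfe2 0.401 ± 0.145, Tal1 0.230 ± 0.0432 and Gfi1b 0.131 ± 0.0306. Lmo2, Klf1 and Nfe2 overlapped with their neighbours in this order, and the other neighbours did not. In control EBs Lmo2 had 3.46 ± 1.09 CPM/kb, Epor 1.14 ± 0.106 and Tal1 0.504 ± 0.342, with no overlap between them, and Hbb-bh1 spread from 0 to 3.80 across all of these. In control EBs + RA Epor had 2.52 ± 0.725 CPM/kb and Lmo2 1.46 ± 0.587, and their libraries overlapped. Klf1 (1 to 23 counts per library) and Gfi1b (0 to 15) were low at every stage.

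EB formation changed 5 members in control cells. Lmo2 had 1.5, 2.27 and 1.10 CPM in control mESCs and 10.0, 7.12 and 5.34 CPM in control EBs, a 4.6-fold rise (log2 fold change 2.20 ± 0.39 SE, adjusted p = 0.00111). The stages did not overlap, and the call held without any 1 clone. Tal1 had 1.21, 0.833 and 0.983 CPM in mESCs and 3.66, 2.30 and 0.663 CPM in EBs. It rose 2.21-fold (1.14 ± 0.52, adjusted p = 0.0991), although clone #7 was lower in EBs than in mESCs. The Tal1 call was lost with clone as a replicate block (0.93 ± 0.42, adjusted p = 0.11), with RLE size factors (0.107), without clone #1 (0.489) and without clone #4 (0.382).

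Epor, Klf1 and Nfe2 fell on EB formation. Epor had 6.41, 7.72 and 2.44 CPM in control mESCs and 1.91, 2.30 and 2.06 CPM in EBs, a 2.65-fold decrease (-1.41 ± 0.39, adjusted p = 0.0135). Klf1 fell 2.46-fold (-1.30 ± 0.45, adjusted p = 0.0373), from 0.696, 0.379 and 0.904 to 0.210, 0.350 and 0.258 CPM. Nfe2 fell 1.92-fold (-0.94 ± 0.38, adjusted p = 0.0719), from 0.879, 1.02 and 1.69 to 0.651, 0.623 and 0.590 CPM. For these 3 genes every EB library lay below every mESC library. Epor lost its call without clone #1 (adjusted p = 0.114) or #4 (0.149), Klf1 without #1 (0.27) or #7 (0.123), and Nfe2 without #1 (0.174), #4 (0.187) or #7 (0.244) and without the filter on low counts (0.111). Of the 5 members with enough counts to test, 2 rose and 3 fell, where 19.0% and 19.4% of all genes tested did so, and the members' median was -0.94 beside -0.01 over all genes.

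RA changed Epor and Lmo2 of control EBs in the opposite directions. Epor had 3.10, 5.62 and 5.10 CPM in control EBs + RA and rose 2.19-fold over EBs (1.13 ± 0.39, adjusted p = 0.0327), but not without clone #4 (0.166). Lmo2 had 3.87, 3.92 and 1.69 CPM and fell 2.40-fold (-1.26 ± 0.37, adjusted p = 0.0159), but not without clone #1 (0.12). EBs with and without RA did not overlap for either gene. Tal1 had 1.35, 1.21 and 0.629 CPM (-1.09 ± 0.51, adjusted p = 0.104), and passed with clone as a replicate block (-0.95 ± 0.41, adjusted p = 0.088), without the filter (0.0935) or without clone #7 (0.00415). Klf1 (-0.62 ± 0.52) and Nfe2 (0.71 ± 0.39) did not pass. Of 5 members tested 1 rose and 1 fell, where 22.0% and 21.1% of all genes did so, with a median of -0.62 over the members.

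In mESCs edgeR called no member in any mutant genotype against control, where it called 1.82% of all genes tested for Neil1, 1.83% for Neil2 and 0.0% for Apex1. Epor had 4.08, 1.81 and 1.73 CPM in Neil1 mESCs, 2.60, 5.75 and 3.47 CPM in Neil2 mESCs and 1.45 and 1.71 CPM in the mESC libraries labelled Apex1. It was the 1 member with an unadjusted p under 0.05 for Neil1 (-1.14 ± 0.49, adjusted p = 0.323) and for Apex1 (-1.83 ± 0.69, adjusted p = 0.349), and there was none for Neil2. DESeq2 called Epor for Apex1 (adjusted p = 0.0622), as did edgeR with the duplicates as 2 libraries (0.0626), and DESeq2 called no member for Neil1 or Neil2. Control clone #7 had the lowest Epor level of the control mESCs. Without it Epor passed for Neil1 (-1.49, adjusted p = 0.0581), Neil2 (-0.85, 0.0981) and Apex1 (-2.18, 2.94e-05), and Nfe2 passed for Apex1 (0.96, 0.0444). Over all genes the 0 calls for Apex1 stood beside 2175 genes with an unadjusted p under 0.05, 427 calls by DESeq2 and 5621 calls by edgeR without control clone #7.

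In EBs without RA, Lmo2 fell in every mutant genotype. Lmo2, on chromosome 2 (103798143 to 103822035), had 10.0, 7.12 and 5.34 CPM in control EBs, 1.30, 1.10 and 1.38 CPM in Neil1 EBs, 0.669, 0.753 and 0.631 CPM in Neil2 EBs and 1.86 and 3.09 CPM in EBs labelled Apex1. No mutant library reached the lowest control library. The decrease was 5.95-fold for Neil1 (-2.57 ± 0.28, adjusted p = 7.87e-05), 10.8-fold for Neil2 (-3.43 ± 0.32, adjusted p = 0.000529) and 3.03-fold for Apex1 (-1.6 ± 0.39, adjusted p = 0.0281). These calls held in each fit that left out 1 library, of which there were 6 for Neil1, 6 for Neil2 and 3 for Apex1. In bulk samples, fewer cells that express a gene and less RNA per cell cannot be told apart. For Neil1 and for Neil2, 2 of the 5 members tested were lower and none was higher, where 13.1% and 7.69% of all genes were lower. For Apex1 1 of 7 was lower, where 9.1% of all genes were. The members' median was -1.10 for Neil1, -0.75 for Neil2 and -0.30 for Apex1, beside 0.0, 0.02 and -0.01 over all genes.

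Tal1, the partner of Lmo2, on chromosome 4 (114729031 to 114744360), varied among control EBs. It had 3.66, 2.30 and 0.663 CPM in control EBs, 0.951, 0.610 and 1.19 CPM in Neil1 EBs, 0.510, 0.586 and 0.721 CPM in Neil2 EBs and 0.568 and 0.495 CPM in EBs labelled Apex1. Control clone #7 lay within the range of both Neil genotypes and above the libraries labelled Apex1. Tal1 fell 3.67-fold in Neil2 EBs (-1.88 ± 0.57, adjusted p = 0.0656), and its value was -1.28 ± 0.55 for Neil1 (adjusted p = 0.117) and -2.09 ± 0.96 for Apex1 (0.221). The Neil2 call was lost without control clone #1 (0.265), control clone #4 (0.159), Neil2 clone #11 (0.115) or Neil2 clone #14 (0.169). Without control clone #7 Tal1 passed for Neil1 (0.00628) and Apex1 (0.00138), and DESeq2 called it for both (0.0625 and 0.0414). For Apex1 it also passed without the filter (0.000704) and with the duplicates as 2 libraries (0.0707).

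Epor, on chromosome 9 (21763343 to 21768020), fell in Neil1 EBs. It had 1.91, 2.30 and 2.06 CPM in control EBs, 1.20, 1.14 and 0.596 CPM in Neil1 EBs, 1.85, 0.753 and 1.04 CPM in Neil2 EBs and 2.60 and 2.86 CPM in EBs labelled Apex1. All Neil1 and Neil2 libraries lay below the controls, and both libraries labelled Apex1 lay above them. The decrease was 2.15-fold in Neil1 (-1.10 ± 0.31, adjusted p = 0.0224) and held in all 6 fits without 1 library. The value was -0.75 ± 0.36 for Neil2 (adjusted p = 0.224), which passed without Neil2 clone #1 (0.0176), and 0.39 ± 0.32 for Apex1 (0.469). Nfe2 had 0.319 to 1.09 CPM over all EB libraries and was called in none (0.26 ± 0.31, 0.05 ± 0.47 and 0.18 ± 0.46). Gfi1b, with 4 to 15 counts, was called in none either (0.07 ± 0.57, 0.38 ± 0.51 and -0.30 ± 0.75), and Klf1, with 5 to 14 counts, passed the filter only for Apex1 (0.41 ± 0.63).

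**Figure D2:**
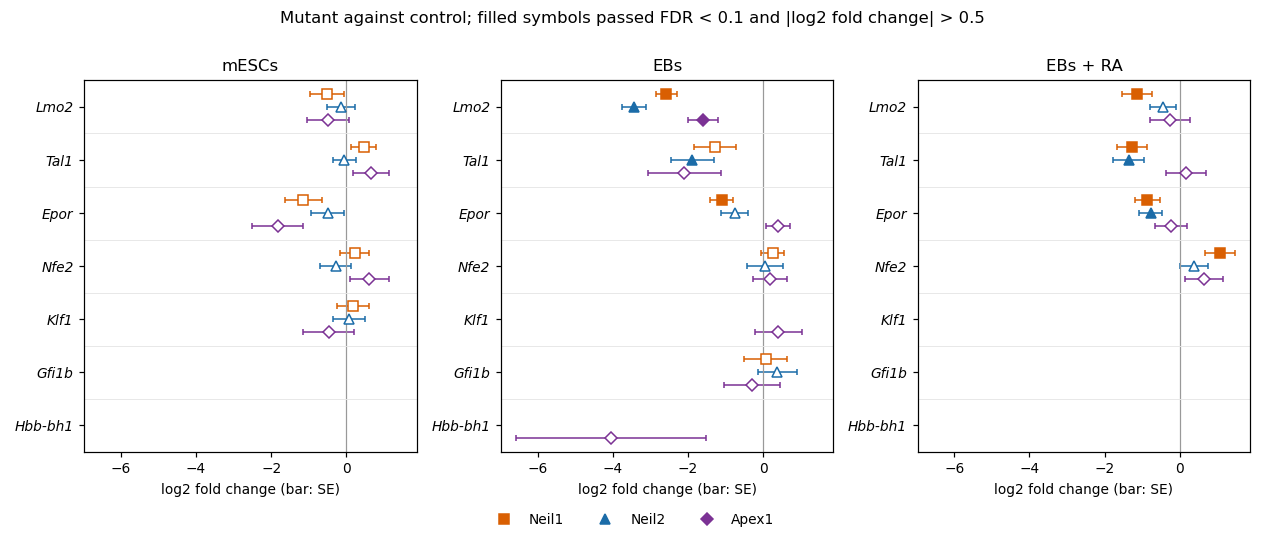
Log2 fold change of each tested member (mutant against control, x axis, bars are standard errors) in mESCs, EBs and EBs + RA; filled symbols passed an adjusted p under 0.1 with a log2 fold change over 0.5 in size, and members without a symbol had too few counts. Lmo2 in EBs passed for all 3 genotypes, from -3.43 to -1.6.

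With RA, Tal1 fell in both Neil genotypes. Tal1 had 1.35, 1.21 and 0.629 CPM in control EBs + RA, 0.403, 0.5 and 0.404 CPM in Neil1 and 0.525, 0.319 and 0.382 CPM in Neil2. All Neil1 and Neil2 libraries were below the controls. The decrease was 2.41-fold in Neil1 (-1.27 ± 0.40, adjusted p = 0.037) and 2.56-fold in Neil2 (-1.36 ± 0.41, adjusted p = 0.0355). Lmo2 had 3.87, 3.92 and 1.69 CPM in controls, 1.46, 1.72 and 1.09 CPM in Neil1 and 2.14, 2.46 and 2.26 CPM in Neil2. It fell 2.20-fold in Neil1 (-1.14 ± 0.39, adjusted p = 0.0499), and its value for Neil2 was -0.45 ± 0.35 (0.357), which passed without control clone #7 (0.0429). Control clone #7, the lowest control library for both genes, lay within the Neil1 range of Lmo2 and below every Neil2 library.

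Epor fell in EBs + RA of both Neil genotypes, and Nfe2 rose in Neil1. Epor had 3.10, 5.62 and 5.10 CPM in controls, 1.76, 2.50 and 3.31 CPM in Neil1 (-0.86 ± 0.34, adjusted p = 0.0789) and 3.23, 1.98 and 2.78 CPM in Neil2 (-0.77 ± 0.31, adjusted p = 0.0926). In each genotype 1 library overlapped with the controls. Blocking on replicate number gave a Neil2 value of -0.76 ± 0.37 (adjusted p = 0.162), which lost the call, as did the fit with all genotypes (0.101). Nfe2, on chromosome 15 (103078643 to 103088834), had 1.16, 0.603 and 1.32 CPM in controls and 1.61, 1.89 and 2.99 CPM in Neil1, a 2.09-fold rise (1.07 ± 0.40, adjusted p = 0.0652) without overlap. In Neil2 it had 1.76, 1.12 and 1.11 CPM (0.38 ± 0.38, adjusted p = 0.471). Klf1 (1 to 10 counts) and Gfi1b (0 to 11 counts) did not pass the filter.

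For Neil1 EBs + RA, 1 of the 4 members tested was higher and 3 were lower, where 21.2% and 19.9% of all genes were. For Neil2, 2 of 4 were lower, where 16.6% of all genes were. The members' median was -1.0 for Neil1 and -0.61 for Neil2, beside 0.0 over all genes in both. None of these 6 calls held in every fit without 1 library. Tal1 was lost for Neil1 without control clone #1 (adjusted p = 0.15) or #4 (0.12), and for Neil2 without control clone #1 (0.139) or #4 (0.111) or Neil2 clone #11 (0.115) or #14 (0.108). Lmo2 was lost for Neil1 without control clone #1 (0.164) or #4 (0.157) or Neil1 clone #7 (0.105). Nfe2 was lost for Neil1 without control clone #1 (0.139) or #4 (0.202) or Neil1 clone #9 (0.101) or #11 (0.152).

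Epor lost its call for Neil1 EBs + RA without control clone #4 (adjusted p = 0.23) or #7 (0.145) or Neil1 clone #7 (0.199) or #9 (0.163). For Neil2 it did so without control clone #4 (0.264) or #7 (0.153) or Neil2 clone #11 (0.247) or #14 (0.183). In EBs + RA labelled Apex1, 0 of 4 members were called by edgeR or by DESeq2 and 0 had an unadjusted p under 0.05, where 8.34% of all genes were called. The values were 0.16 ± 0.53 for Tal1, -0.26 ± 0.54 for Lmo2, -0.24 ± 0.43 for Epor and 0.65 ± 0.51 for Nfe2.

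The response of Lmo2 to RA differed between genotypes. In Neil1 cells Lmo2 did not pass on EB formation (0.14 ± 0.40, adjusted p = 0.85) or with RA (0.18 ± 0.40, adjusted p = 0.726). In Neil2 cells Lmo2 fell 2.14-fold on EB formation (-1.10 ± 0.33, adjusted p = 0.0334) and rose 3.29-fold with RA (1.72 ± 0.33, adjusted p = 0.0017). Neil2 EBs overlapped with neither stage. The rise with RA held without any 1 clone, and the fall was lost without clone #1 (0.124) or #14 (0.217). A test of the difference in RA response from control gave 1.45 ± 0.49 for Neil1 (adjusted p = 0.0484) and 2.97 ± 0.48 for Neil2 (adjusted p = 0.00183). Lmo2 was the 1 member called of 5 tested in either genotype. Of all genes, 17.3% for Neil1 and 7.42% for Neil2 were called with a positive difference. The Neil2 difference held in all 6 fits that left out a clone, and that for Neil1 was lost without control clone #1 (0.139) or Neil1 clone #7 (0.112) or #9 (0.181). Both tests share the control libraries. Their main fits did not pair EBs with and without RA by clone, and both calls held with clone as a block.

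Stage changes of the other members are given by genotype, without a test between genotypes for EB formation. Epor fell on EB formation in Neil1 (-1.38 ± 0.44, adjusted p = 0.0423), as the 1 call among 5 members tested where 13.4% of all genes fell. It also fell in Neil2 (-1.66 ± 0.40, adjusted p = 0.0125), where with Lmo2 it made 2 of 6 members and 12.5% of all genes fell. With RA Epor rose 2.60-fold in Neil1 (1.38 ± 0.43, adjusted p = 0.0196) and 2.14-fold in Neil2 (1.09 ± 0.40, adjusted p = 0.0449). Nfe2 rose 2.90-fold with RA in Neil1 (1.53 ± 0.37, adjusted p = 0.00467), in every fit without 1 clone. In Neil2 Nfe2 had 1.03 ± 0.48 (adjusted p = 0.102), and passed with clone as a replicate block (0.0816), without the filter (0.0987) or without clone #11 (0.0511). Klf1 fell with RA in Neil1 (-1.45 ± 0.54, adjusted p = 0.0395) and Neil2 (-1.29 ± 0.51, adjusted p = 0.0577), from 9 to 12 and 5 to 14 counts to 2 to 6 and 4 to 5. Tal1 fell with RA in Neil1 (-1.06 ± 0.39, adjusted p = 0.0369). With RA 2 of 5 members rose and 2 fell in Neil1, where 28.4% and 23.0% of all genes did, and 2 of 6 rose and 1 fell in Neil2, where 22.7% and 21.7% did.

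Several of these stage calls were lost in fits that left out 1 clone, which test with less precision. Epor on EB formation was lost in Neil1 without clone #7 (adjusted p = 0.229) or #9 (0.128), and in Neil2 without #11 (0.119) or #14 (0.187). With RA Epor was lost in Neil1 without #11 (0.117) and in Neil2 without #14 (0.285). Klf1 was lost in Neil1 without #7 (0.243) or #9 (0.171). In Neil2 Klf1 was lost without #1 (0.138), #11 (0.111) or #14 (0.29) and by DESeq2 (0.116) or without the filter (0.102). Gfi1b in Neil1, too low to test at the filter used, passed with RA by DESeq2 (0.0795) and without the filter (0.0468), as did Hba-x (0.025 and 0.00445). Tal1 was lost in Neil1 without #7 (0.174) or #11 (0.181).

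**Figure D3:**
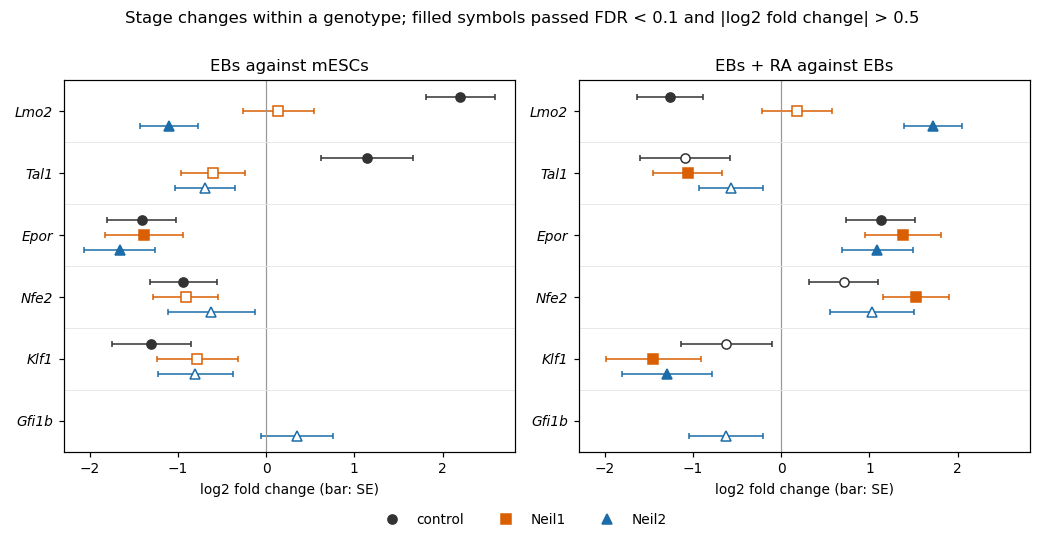
Log2 fold change (x axis, bars are standard errors) of each tested member on EB formation and with RA in control, Neil1 and Neil2 cells; filled symbols passed an adjusted p under 0.1 with a log2 fold change over 0.5 in size. Lmo2 has opposite directions in control and Neil2 cells at both steps (2.20 and -1.10 on EB formation, -1.26 and 1.72 with RA), while Epor points the same way in all 3 genotypes.

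Neil1 and Neil2 cells were also compared directly. Called by edgeR were 0 members and 0.0% of all genes in mESCs, 0.0% in EBs and 0.0% in EBs + RA. An unadjusted p under 0.05 was found for 915, 735 and 1608 genes, and DESeq2 called 3, 1 and 111 genes, none of them a member. Lmo2 in EBs was the 1 member with such a p (0.87 ± 0.33, adjusted p = 0.773), at 1.30, 1.10 and 1.38 CPM in Neil1 and 0.669, 0.753 and 0.631 CPM in Neil2. All Neil1 EB libraries were above the Neil2 libraries, and with RA all were below them (-0.66 ± 0.29, adjusted p = 0.486).

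Gene lists are read against the share of all genes called, which in EBs was 13.1% lower and 10.4% higher for Neil1, 7.69% and 8.65% for Neil2, and 9.1% and 7.49% for Apex1. Among 16 further regulators of blood formation, of which 14, 14 and 16 could be tested in Neil1, Neil2 and Apex1, 4 fell and 2 rose in Neil1 EBs, 3 fell and 2 rose in Neil2 EBs, and 4 fell and 1 rose in EBs labelled Apex1. The list medians were -0.36, 0.02 and -0.43. Runx1, which the blood-forming endothelium requires, had 29.9, 29.4 and 15.2 CPM in control EBs, 2.30, 3.90 and 2.38 CPM in Neil1, 6.44, 1.09 and 2.12 CPM in Neil2 and 3.28 and 4.12 CPM in EBs labelled Apex1. It fell in all 3 genotypes without overlap (-3.11 ± 0.31, -2.90 ± 0.57 and -2.75 ± 0.47, adjusted p = 0.000154, 0.0126 and 0.0179). Etv2, a factor of early blood and endothelial progenitors, fell in all 3 as well (-1.80 ± 0.25, -2.07 ± 0.30 and -1.10 ± 0.30), from 4.64 to 5.22 CPM in control EBs to 0.733 to 2.29 CPM in the mutants. Fli1 fell in Neil1 (adjusted p = 0.00109) and Neil2 (0.00771), from 2.71, 1.99 and 0.663 CPM in control EBs to 0 to 0.126 CPM, and did not pass for Apex1 (0.244).

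Of the GATA factors, the DNA-binding partners of the Lmo2-Tal1 complex, Gata1 was called in no mutant EBs. Gata1, the main red cell factor, had 0.967, 1.6 and 1.92 CPM in control EBs and 0.596 to 3.06 CPM in the mutants (-0.31 ± 0.40, 0.58 ± 0.38 and -0.18 ± 0.45). Gata2, which acts in earlier progenitors, fell in EBs labelled Apex1 (-1.48 ± 0.33, adjusted p = 0.0208), at 5.07 and 3.20 CPM beside 10.8, 14.9 and 8.73 in controls, and did not pass for Neil1 (0.13 ± 0.21) or Neil2 (-0.15 ± 0.23). Zfpm1, the cofactor FOG1 of GATA1, fell in Neil1 (-0.64 ± 0.25) and Apex1 (-1.0 ± 0.23). Myb rose in Neil1 (1.36 ± 0.13) and Neil2 EBs (0.96 ± 0.17). Bcl11a, known for silencing fetal globin genes, rose in all 3 genotypes (2.24 ± 0.47, 1.41 ± 0.37 and 1.41 ± 0.30).

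**Figure D4:**
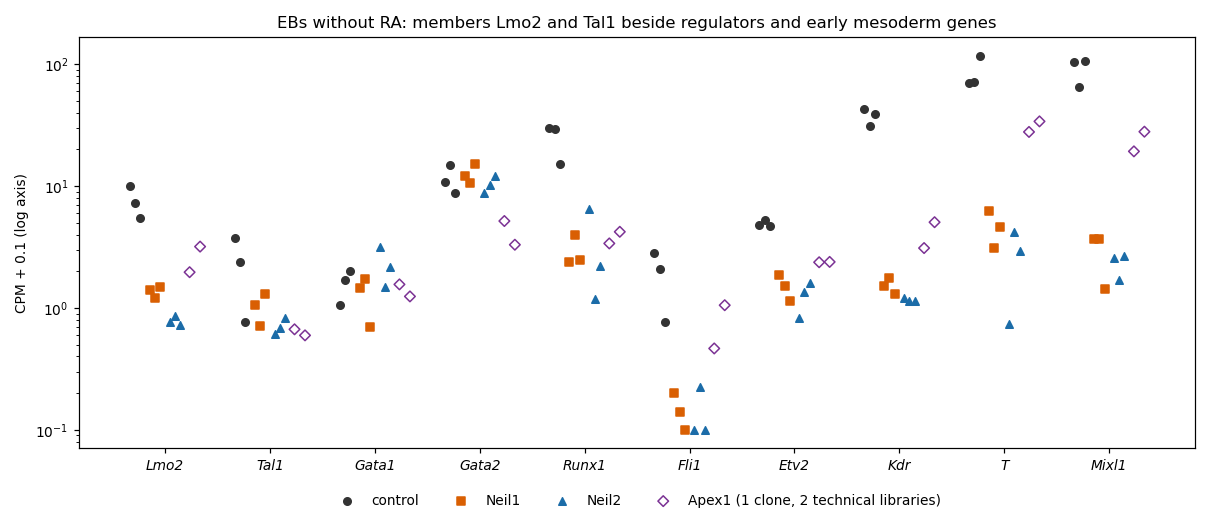
CPM + 0.1 on a log axis for Lmo2, Tal1 and 8 other genes of blood, endothelium and mesoderm in EBs without RA, each dot 1 library and each colour a genotype (open diamonds are technical duplicates). Control EBs lie above both Neil genotypes for Lmo2, Runx1, Fli1, Etv2, Kdr, T and Mixl1, whereas Tal1, Gata1 and Gata2 overlap between control and both Neil genotypes.

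Early mesoderm genes fell in 8 of 8 cases in Neil1 EBs, 7 of 8 in Neil2 EBs and 7 of 8 in EBs labelled Apex1, with medians of -3.86, -4.16 and -1.99. Their summed level was 415 to 493 CPM in control EBs, 47.4 to 62.9 in Neil1, 50.6 to 63.6 in Neil2 and 136 to 157 in EBs labelled Apex1. In these EBs both the sum and Lmo2 were lower in all 3 mutant genotypes than in control. With RA they went apart in Neil2 cells, where the sum was 23.6 to 37.55 CPM in EBs + RA and Lmo2 rose over EBs. The part of the early mesoderm genes in the Lmo2 result was not tested. Mixl1, of the primitive streak, fell by 5.05, 5.36 and 1.97 on the log2 scale, and Hand1, of extraembryonic and lateral mesoderm, fell by 3.49, 3.54 and 3.20. Of 13 endothelial genes, 12 of them tested in each genotype, 4, 3 and 3 fell and 2 rose in each genotype, with medians of -0.32, -0.24 and -0.44. Kdr, the VEGF receptor of blood and endothelial progenitors, fell (-4.72 ± 0.19, -5.11 ± 0.21 and -3.23 ± 0.25), from 30.8 to 42.7 CPM in control EBs to 1.04 to 4.95 CPM. Pecam1, which pluripotent cells also express, rose (1.04 ± 0.09, 0.97 ± 0.16 and 0.56 ± 0.13). Cdh5, the endothelial cadherin, did not pass, with Neil1 EBs at 3.90, 2.03 and 19.0 CPM.

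Red cell products were read from 3 lists in the same EBs, against the shares of all genes given above. Of 11 haem synthesis genes, of which 10, 10 and 11 could be tested, 2 fell in Neil1 EBs, Slc25a37, the mitochondrial iron carrier (-0.70 ± 0.15), and Uros (-0.54 ± 0.16), and none was called for Neil2 or Apex1, with medians of -0.10, 0.07 and 0.0. Of 15 red cell membrane genes, 7 could be tested in each Neil genotype and 13 for Apex1, and 2 rose and 1 fell in Neil1, none was called in Neil2, and 2 rose and 1 fell for Apex1. Slc4a1, the anion exchanger band 3, rose in Neil1 EBs (0.91 ± 0.33, adjusted p = 0.0604), at 1.0, 1.14 and 0.820 CPM beside 0.420, 0.584 and 0.590. Spna1, alpha-spectrin, rose there too (1.79 ± 0.39), and Spnb1, beta-spectrin, rose for Apex1 (0.86 ± 0.20). Of 10 other red cell genes, of which 5, 5 and 6 could be tested, Fam132b, the hormone erythroferrone, fell in Neil1 (-0.94 ± 0.21), Blvrb (0.55 ± 0.17) and Cited4 (1.19 ± 0.30) rose in Neil2, and none was called for Apex1. Of 10 genes of erythropoietin and Kit signalling, of which 9, 9 and 10 could be tested, 3, 1 and 2 fell, with medians of -0.33, -0.18 and -0.30. Kitl, the Kit ligand, fell in all 3 genotypes (-1.48 ± 0.24, -1.78 ± 0.26 and -1.55 ± 0.43). The 5 adult globins were too low to test in EBs with or without RA.

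**Figure D5:**
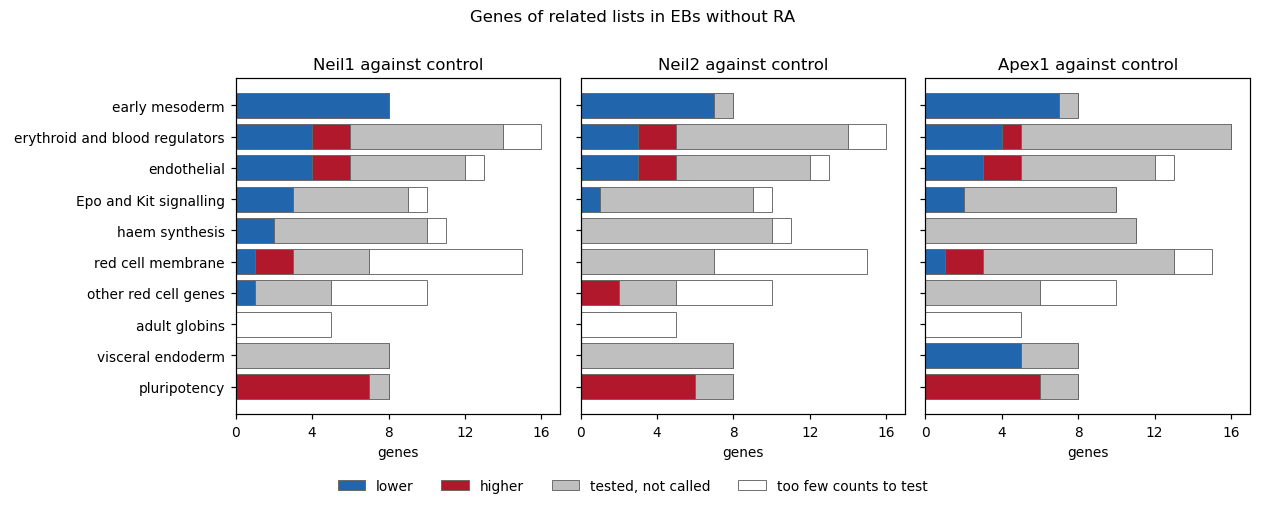
Number of genes (x axis) of each list that were lower, higher, tested without a call or too low to test in EBs without RA, for each mutant against control. Early mesoderm genes are nearly all lower (8, 7 and 7 of 8), and the red cell lists are mostly without a call or too low to test.

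Markers of other cell types were read in the same EBs. Of 8 pluripotency genes 7, 6 and 6 rose in Neil1, Neil2 and Apex1, with medians of 0.63, 0.66 and 0.84. Pou5f1, the core factor of pluripotent cells, had 398 to 414 CPM in control EBs and 398 to 824 in the mutants (0.92 ± 0.08, 0.72 ± 0.24 and 0.90 ± 0.11). Of 8 visceral endoderm genes, which mark the layer that lines the yolk sac, none was called in Neil1 or Neil2, and 5 fell for Apex1 (median -2.46). Afp, alpha-fetoprotein, had 82.2, 42.8 and 204 CPM in control EBs and 19.7 and 9.87 CPM for Apex1 and was called in no genotype. The summed level of the list was 195 to 594 CPM in control EBs and 56.3 to 79.3 CPM in those labelled Apex1, and its part in the member results was not tested. Other blood cells left few counts, with Pf4 of megakaryocytes at 0 to 4 over all libraries, the leukocyte antigen Ptprc at 0 to 6 and Cpa3 of mast cells at 0 to 1. Few genes of these cells could be tested, 2, 2 and 4 of 9 for megakaryocytes, 4, 4 and 5 of 10 for macrophages and 1 of 6 for mast cells. Itga2b of megakaryocytes fell in Neil1 (-0.75 ± 0.22), Csf1r of macrophages fell for Apex1 (-3.41 ± 0.54), and Hdc of mast cells rose in Neil1 (0.98 ± 0.29) and fell for Apex1 (-1.01 ± 0.33), with no other call in these 3 lists.

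In EBs + RA, Gata1 rose in the Neil genotypes in which Tal1 fell. Of all genes, 21.2% rose and 19.9% fell in Neil1, 18.3% and 16.6% in Neil2, and 5.32% and 3.02% in Apex1, which are the shares beside which the lists below are read. Gata1 had 0.363, 0.565 and 0.828 CPM in controls, 2.17, 2.54 and 1.17 CPM in Neil1 (1.75 ± 0.43, adjusted p = 0.016) and 1.43, 2.33 and 1.91 CPM in Neil2 (1.70 ± 0.38, adjusted p = 0.0114), without overlap. Gata2 (0.97 ± 0.28) and Runx1 (1.11 ± 0.34) rose in Neil1 and had values of 0.34 ± 0.19 and 0.03 ± 0.30 in Neil2. Bcl11a fell in both (-4.06 ± 0.36 and -3.56 ± 0.26), as did Fli1 (-4.06 ± 0.46 and -3.21 ± 0.30) and Myb (-2.78 ± 0.54 and -3.04 ± 0.55). Of these regulators, Gata1, Runx1 and Myb fell with RA in control cells, and Gata2, Bcl11a and Fli1 rose. On EB formation in control cells Gata1 fell, and Gata2, Runx1, Myb and Fli1 rose. Of the 16 regulators 14, 15 and 16 could be tested in Neil1, Neil2 and Apex1, and 4 rose and 6 fell in Neil1, 1 rose and 5 fell in Neil2, and none was called for Apex1, with medians of -0.16, -0.23 and -0.01. Of 13 endothelial genes 5 fell in each Neil genotype, Kdr among them (-2.54 ± 0.29 and -2.66 ± 0.20), while 4, 2 and 2 rose in Neil1, Neil2 and Apex1. Kit, the stem cell factor receptor, rose in all 3 genotypes (1.67 ± 0.41, 0.88 ± 0.16 and 1.07 ± 0.23). It was 1 of 4, 3 and 1 genes of the signalling list that rose among 9, 10 and 10 tested, and Kitl fell in Neil2.

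Red cell products gave calls in both directions in EBs + RA. Of the haem synthesis genes 10, 10 and 11 could be tested. In Neil1 Cpox (0.93 ± 0.18) and Alas1 (0.51 ± 0.20) rose and Urod fell (-0.51 ± 0.14), and none was called for Neil2 or Apex1. Of the membrane genes 9, 9 and 11 could be tested, and 1 rose and 2 fell in Neil1, 2 rose and 3 fell in Neil2, and 2 rose and 1 fell for Apex1. Ank1, ankyrin, fell in both Neil genotypes (-1.49 ± 0.31 and -1.34 ± 0.30). Slc4a1 was called higher for Apex1, with 16 and 12 counts in the duplicates, added up to 1 library, beside 0, 1 and 0 in controls. It entered the test only through that library, where it was high, so the call gives no support for a change. Of the other red cell genes 5 could be tested in each genotype. Blvrb, a biliverdin reductase, rose in all 3 genotypes (1.49 ± 0.22, 1.53 ± 0.21 and 1.35 ± 0.29). Cited4 (1.65 ± 0.29 and 1.83 ± 0.40) and Tspan33 (0.57 ± 0.23 and 0.67 ± 0.20) rose in both Neil genotypes. Bpgm, which makes the haemoglobin ligand bisphosphoglycerate, fell in both (-0.97 ± 0.16 and -0.66 ± 0.14).

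Markers of other cell types were read in the same EBs + RA. Of 10 macrophage genes 5, 4 and 5 could be tested and 3 rose in each Neil genotype, namely Sfpi1, which opposes Gata1 in blood progenitors (2.56 ± 0.68 and 1.97 ± 0.68), Csf1r (2.59 ± 0.52 and 1.03 ± 0.24) and Cd68 (1.45 ± 0.27 and 0.92 ± 0.21), and none was called for Apex1. Their summed level was 15.1 to 22.5 CPM in controls, 43.8 to 96.3 in Neil1, 28.8 to 39.0 in Neil2 and 14.6 to 16.8 in EBs labelled Apex1, with Ptprc at 0 to 2 counts, and its part in the member results was not tested. Pluripotency genes rose in 6, 7 and 6 of 8 cases (medians 1.55, 2.04 and 2.73), and Sox2 fell in Neil1. Of the early mesoderm genes 6, 7 and 7 could be tested, and 3, 4 and 1 rose and 2, 1 and 0 fell, and visceral endoderm genes rose in 3, 1 and 0 of 8. Itga2b (0.78 ± 0.25 and 0.87 ± 0.24) and Hdc (1.48 ± 0.26 and 1.67 ± 0.31) rose in both Neil genotypes and Gp5 in Neil1 (1.12 ± 0.42), as the calls among 5, 4 and 5 megakaryocyte genes and 1 mast cell gene tested.

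Genes most like a member in pattern are given as a description, by Pearson r of log2 CPM over 30 libraries among 15560 genes, where libraries share clones and stages. For Tal1 they were Vegfc (r = 0.78), Nrp2 (0.75) and Jag1 (0.74). For Epor they were Cacna1h (0.87), Nxph4 (0.86) and Tmem206 (0.85). For Klf1, at 1 to 23 counts per library, they included 1700057H21Rik (0.89) and Tars2 (0.89). Hba-x had Pfkfb2 (0.76), Tmbim1 (0.75) and Golgb1 (0.74), at 0 to 7 counts per library. Among the members the closest pairs were Hbb-bh1 with Lmo2 (0.61), Klf1 with Gfi1b (0.56) and Hbb-bh1 with Tal1 (0.53), of which Hbb-bh1 was above 0 in few libraries.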

How the data were processed

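RNA from 33 libraries (30 after the Apex1 technical duplicates were summed) was sequenced with an unstranded TruSeq kit. Per the submitters' processing notes, the authors aligned reads with TopHat2 2.0.9 and Bowtie2 2.1.0 to NCBIM37 and deposited raw counts per gene made with HTSeq 0.5.4. Whether counting used strand is not given in the sources used here, so genes that overlap on opposite strands could share reads. The exons of the 9 members are shared with no other gene. Rows that name no gene held 21.8 to 30.4% of each total and were left out, and 0 columns were left unused.

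Counts were tested over all genes with edgeR 4.0.16 (filterByExpr, TMM, robust quasi-likelihood F-test; R 4.3.3, limma 3.58.1), and p-values were adjusted by Benjamini-Hochberg over all genes tested. In the Apex1 comparisons the filter on low counts asked for enough counts in only 1 library, and in those of 3 against 3 clones in 3. More genes were therefore tested for Apex1, and a gene could enter through the 1 library where it was high. A gene was called at an adjusted p under 0.1 and a log2 fold change over 0.5 in size. The tests of the RA response against control used the adjusted p alone. Standard errors are the log2 fold change divided by the square root of F. An exact test of 3 against 3 clones cannot go below p = 0.1, so none was used. CPM are counts scaled to library size with TMM factors over the libraries. Intervals are 95% and exact.

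Clones were taken as replicates, since nothing else states independent cultures, so p-values measure the spread between clones. EBs with and without RA of a clone came from the same dish, and deviations from group means over 11216 genes correlated in each clone (r from 0.35 to 0.42 in control, 0.17 to 0.34 in Neil1 and 0.43 to 0.49 in Neil2). The main tests of stage and RA did not use this pairing, and clone as a replicate block was run as an alternative. Across genotypes clones share only a replicate number. Of these pairs of groups, correlations over 0.1 in all 3 numbers were found only between control and Neil1 EBs + RA (r = 0.25, 0.29 and 0.22), where the numbers were taken to pair the samples and the replicate block changed no member call.

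The members and 13 gene lists (adult globins, haem synthesis, red cell membrane, other red cell genes, regulators, erythropoietin and Kit signalling, endothelial, megakaryocyte, macrophage, mast cell, visceral endoderm, early mesoderm, pluripotency) were chosen with earlier results of these data known. Named from the lists were a set of marker genes whatever their values and up to 3 called genes of largest change per list and comparison. Other list genes were named after their values were seen. Ahsp had no match in the annotation, and 2 genes that the rule names are not reported here. Alternatives were no filter on low counts, RLE size factors, DESeq2 1.42.0, all genotypes in 1 fit, a replicate block, the duplicates as 2 libraries, and leaving out each replicate. Scripts were tested on simulated data, in which only well-counted genes were changed and the spread was fixed. The simulation therefore does not check the tests at the members' low counts. Promoters were read with Python 3.11.15 and plots drawn with matplotlib 3.10.9.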

Additional observations from a re-analysis of the deposited data

Results flagged for a closer look

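The change of Lmo2 in Neil1 against control was higher in EBs + RA than in EBs by 1.45 on the log2 scale (SE 0.49, adjusted p = 0.0484), a difference found by the test of the RA response itself. For Neil2 the same difference was 2.97 (SE 0.48, adjusted p = 0.00183). Both rest on the same control libraries, in which Lmo2 was highest in EBs.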

How the results depend on the processing

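No call turned its direction under any alternative. Over all comparisons 30 member calls were made, with 29 under RLE size factors, 36 without the filter on low counts and 37 by DESeq2. With the replicate block, which was not run for the Apex1 comparisons and their 1 call, there were 29 member calls beside 29 without it, and it moved Tal1 on control EB formation, Tal1 with RA in control, Nfe2 with RA in Neil2 and Epor in Neil2 EBs + RA across the limit, and no other member. Fits over fewer samples test with less precision. Members called without 1 library or clone numbered 0 to 1 in Neil1 mESCs and in Neil2 mESCs and 0 to 2 for Apex1 mESCs (0 in each with all libraries), 2 to 4 in Neil1 EBs (2), 1 to 3 in Neil2 EBs (2) and 1 to 3 in Apex1 EBs (1). They numbered 0 to 3 in Neil1 EBs + RA (4) and 0 to 2 in Neil2 EBs + RA (2). On EB formation they were 1 to 4 in control (5), 0 to 1 in Neil1 (1) and 0 to 1 in Neil2 (2), with RA 1 to 4 in control (2), 2 to 3 in Neil1 (4) and 1 to 3 in Neil2 (3), and in the test of the RA response 0 to 1 for Neil1 (1). DESeq2 called 4 members in Neil1 EBs, 2 in Apex1 EBs and 1 in Apex1 mESCs, and taking the duplicates as 2 libraries gave 2 in Apex1 EBs and 1 in Apex1 mESCs. Without the filter 2 were called in Apex1 EBs and 2 in the Neil1 RA response. In Neil2 EBs + RA 1 was called with all genotypes in 1 fit and 1 with the replicate block. The causes were not tested. Counts over all genes in Neil1 mESCs moved from 283 to 503 without the filter, 1044 by DESeq2, 905 with all genotypes in 1 fit, 0 with the replicate block and 0 to 2011 without 1 library, and in Neil2 mESCs from 286 to 479, 819, 72, 634 and 1 to 1494. Called genes in Apex1 mESCs moved from 0 to 163 without the filter, 427 by DESeq2, 336 with all genotypes in 1 fit, 2751 with the duplicates as 2 libraries and 58 to 5621 without 1 control. In Apex1 EBs they moved from 2796 to 1499 with all genotypes in 1 fit, and in Apex1 EBs + RA from 1400 to 2332 without the filter, 4026 with the duplicates as 2 libraries and 449 to 5435 without 1 control. Without 1 library or clone they moved from 2545 to between 1407 and 3705 in Neil2 EBs, from 6367, 4051 and 4451 to as few as 4197, 1722 and 915 on EB formation in control, Neil1 and Neil2, from 7271 to as few as 4466 with RA in Neil2, and from 5374 and 2581 to as few as 2582 and 970 for the RA response of Neil1 and Neil2 (4163 in Neil2 with the replicate block). Low counts limited the tests of Klf1, Gfi1b and the globins, most of whose values rest on under 25 counts. Whether depth or low expression lay behind this was not tested.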
